A study of Mus musculus with 18 samples.

Results

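Afp, H19, Igf2, Dlk1, Meg3, Peg3, Mest, Igf2r, Grb10 and Zim1 were taken by name from the GENCODE M21 annotation (mouse genome GRCm38) as genes that are high in fetal liver and turned down after birth. They are 10 of 55450 annotated genes, and each of them had an own-strand Input peak in an exon in at least 1 library, as did 5274 genes in all. The liver RNA came from mice of 8 to 9 days, and 2 genotypes were compared. The Adar-/-; Mavs-/- mice, called double mutants here, have neither ADAR1, the enzyme that turns adenosine into inosine in paired RNA, nor MAVS, the adaptor protein downstream of the RNA sensor MDA5. The Mavs-/- mice keep ADAR1, so MAVS was missing from all animals, although the titles of these samples call them wild-type. The double mutants were obtained by crossing the 2 strains and backcrossing to Bl6J, and the RNA is that of bulk liver tissue. For each genotype 3 replicates of 3 fractions were sequenced: undigested RNA (Input), RNA digested with RNase A/T1 (RNase-only), and RNA digested after binding of MDA5ΔCARD, an MDA5 without its signalling domains (MDA5-protected).

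Imprinted genes are read from only the maternal or only the paternal copy, and many of them control fetal growth. In liver the fetal program is shut down in the weeks around and after birth, while genes for urea synthesis, amino acid breakdown and drug metabolism are switched on. The paternally expressed growth factor Igf2 and the maternally expressed non-coding RNA H19 share enhancers and lie side by side, and the maternally expressed Igf2r encodes the receptor that takes IGF2 up for degradation. Afp, which is not imprinted, encodes alpha-fetoprotein, the fetal relative of serum albumin.

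H19 carries a microRNA hairpin in an exon, and Igf2 carries another in an intron. Their mature sequences are shown because they mark which stretches of the host RNAs the Input peaks covered. Sequences are from RefSeq (GRCm38.p6), 5′ to 3′, with the seed in capitals.
miR-675-5p: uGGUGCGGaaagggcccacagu
miR-675-3p: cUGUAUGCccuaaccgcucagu
miR-483-5p: aAGACGGGagaagagaagggag
miR-483-3p: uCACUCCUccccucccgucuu
No seed is shared among these 4. The miR-675 hairpin (chr7:142577064-142577147, minus strand) is exonic in 3 of the 4 H19 transcripts that span it, and it lay inside an Input peak in 6 of 6 libraries. The miR-483 hairpin (chr7:142654924-142654996, minus strand) is intronic in the 7 Igf2 transcripts that span it and lay in an Input peak in 0 of 6 libraries. Neither hairpin was covered by an RNase-only or an MDA5-protected peak, and miR-770 and miR-1906 in Meg3 and miR-335 in Mest lay in no peak of any fraction. A peak over a hairpin shows reads of the host RNA and does not measure the mature microRNA.

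The values are peak areas. The peak caller Genrich gives each peak an area under its significance curve, so a ratio of areas is not a ratio of RNA amounts. Only peaks with an area of at least 500 were kept, so an area of 0 means that no peak passed and not that the RNA was absent. For each gene the areas of its own-strand exonic Input peaks were added and divided by a size factor of the library (the scaled area). Read counts are not part of the lists, and the depth of each value is therefore unknown. The Input lists held 6991 to 8948 peaks in the double mutants and 4326 to 6625 in Mavs-/-, with size factors of 1.09 to 1.2057 and 0.8199 to 1.0085, so list size and genotype went together. Liver identity was plain in both genotypes: 8 of 8 hepatocyte identity genes were tested, and the summed scaled area of that list was 323512 to 393559 in Mavs-/- and 282325 to 339910 in the double mutants. Mavs had no peak in any library. Adar had an exon 2 Input peak in 2 double mutant libraries, in replicates 2 and 3. Double mutant replicate 2 also had own-strand intronic RNase-only peaks in Adar (areas 667.5 and 576.3). No Mavs-/- library had a peak in Adar. These peaks do not test the allele, because the deleted stretch is not marked in the lists.

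**Figure D1:**
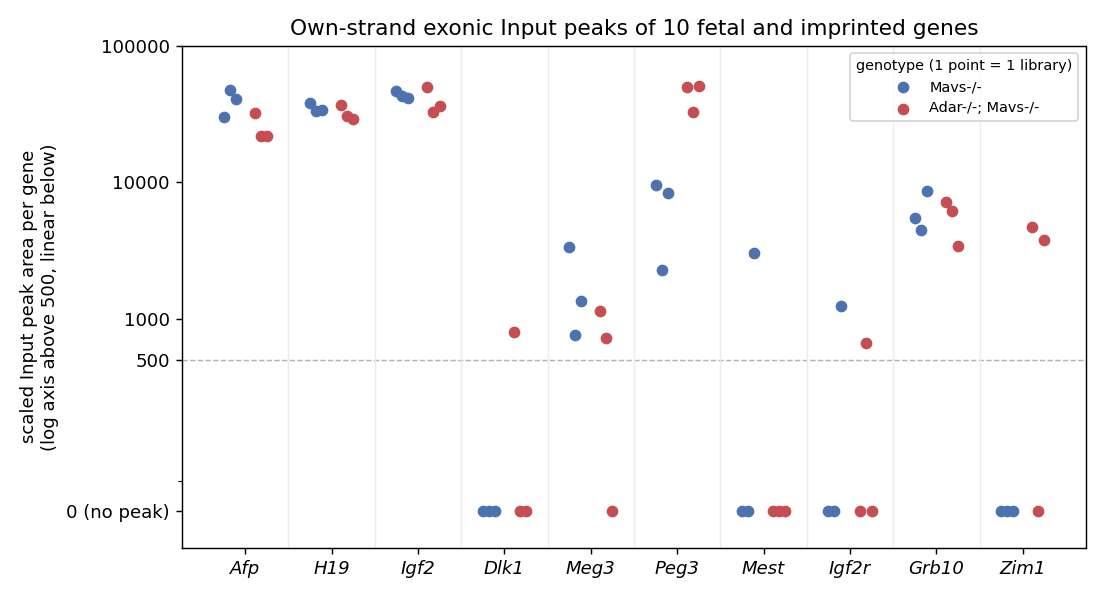
Scaled own-strand exonic Input area of the 10 genes (y axis, area units, logarithmic above 500 and linear below), with 1 point per library, blue for Mavs-/- and red for the double mutants. Afp, H19 and Igf2 sit between 21709 and 49707 in all 6 libraries, and the genotypes do not overlap for Peg3.

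The Input peaks were compared between genotypes as a reading of liver maturation. Of the 10 genes, 6 had a peak in at least 3 of 6 libraries and were tested with limma, and 1 of them passed. That was Peg3, which was higher in the double mutants, while Afp, H19, Igf2, Meg3 and Grb10 did not pass. Over all 3036 genes tested, 15.7% were called higher in the double mutants and 5.57% lower (21.3% in either direction, and 37% at an unadjusted p of 0.05), so 1 of 6 is near the background share. The median log2 difference of the 6 was −0.15, against 0.35 over all genes tested. Without scaling the median of all genes was 0.55, and it was 0.11 when every library was held to the same number of peaks. For genes with a peak in all 6 libraries it was 0.04. The tested genes moved with the setting too. Without scaling Afp, H19, Igf2, Meg3, Peg3 and Grb10 had −0.27, 0.25, 0.21, −0.85, 3.16 and 0.19. With equal numbers of peaks they had −0.60, −0.04, −0.07, −0.82, 3.02 and −0.38. Under both settings only Peg3 lay above the median of all genes.

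The calls over all genes were fragile. There were 478 higher and 169 lower calls (647), 634 and 82 without scaling, and 223 and 202 with equal numbers of peaks. Leaving out replicate 1, 2 or 3 of the double mutants left 49, 84 and 46 calls. Leaving out replicate 1 or 2 of Mavs-/- left 367 and 147, while leaving out its replicate 3 raised the number to 869.

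**Figure D2:**
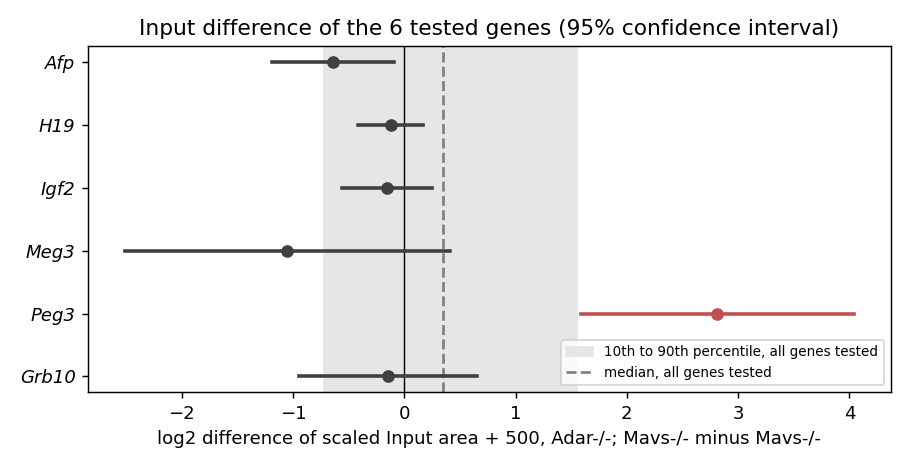
Log2 difference of the scaled Input area + 500 (x axis, double mutant minus Mavs-/-) for the 6 tested genes, with 95% confidence intervals from limma, against the 10th to 90th percentile (−0.72 to 1.55) and median (0.35) of 3036 genes. The interval of Peg3, in red, lies above 0 from 1.58 to 4.04, and the other 5 did not pass an adjusted p of 0.05.

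Afp (chr5:90490737-90508907, plus strand) is the classical marker of the fetal hepatocyte. Its scaled Input areas were 30156, 47901 and 41031 in Mavs-/- and 32101, 21837 and 21709 in the double mutants. The highest double mutant library lay above the lowest Mavs-/- library, so the genotypes overlapped. All 15 exons were touched by peaks in all 6 libraries, and the gene ranked between place 23 and 48 in area within its library. The log2 difference was −0.64 (SE 0.226, 95% CI −1.19 to −0.09), with an adjusted p of 0.0944 by limma. Some peaks bridged introns, the longest of them 2969 bases in Mavs-/- replicate 2. Where at least 50% of a peak had to lie within the exons, the difference was −0.18 (adjusted p 0.701).

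H19 (chr7:142575529-142578143, minus strand), which is transcribed from the maternal copy, was covered almost from end to end. A single peak of 2550 to 2569 bases spanned all 5 exons in every library. It covered 97.7% ± 0.40 of the exonic bases in Mavs-/- and 98.0% ± 0.17 in the double mutants (SD, n = 3 each). Scaled areas were 38130, 33505 and 33900 in Mavs-/- and 37183, 30770 and 29202 in the double mutants. These ranges overlapped, and the difference of −0.12 (SE 0.121, 95% CI −0.42 to 0.17, adjusted p 0.509 by limma) did not pass. H19 also had the largest area per exonic base of the 10, before scaling, with 12.8 ± 1.42 in Mavs-/- and 15.1 ± 1.29 in the double mutants (SD, n = 3). The corresponding values were 10.5 ± 2.52 and 8.58 ± 1.57 for Afp, and 6.80 ± 0.569 and 7.94 ± 1.34 for Igf2.

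Igf2 (chr7:142650766-142666816, minus strand) lies 72.6 kb from H19 and encodes the main fetal growth factor of the insulin family. It had 5 or 6 peaks in every library, over all 4 exons of its reference transcript and over a further first exon of another transcript. Scaled areas were 46674, 43024 and 41240 in Mavs-/- and 49707, 32896 and 36345 in the double mutants. The lowest and the highest value both came from the double mutants. The difference was −0.16 (SE 0.165, 95% CI −0.56 to 0.24, adjusted p 0.538 by limma). Exons of Gm49394 on the same strand overlap Igf2, so peaks could not be assigned to either gene alone. Over all 6 libraries Igf2 had the highest median area of the 10 genes (42132), while in the double mutants alone the median of Peg3 (50231) was above that of Igf2 (36345). Over the same 6 libraries the pattern most like it among 1318 genes was that of Gm49394 (Pearson r 0.987), followed by Mydgf (0.939) and Tpt1-ps3 (0.913). These are descriptions over 6 points that share libraries. A peak on exons of both Igf2 and Gm49394 was counted in full for each, so the r of this pair does not compare separate signals. For H19 and Igf2 the sign depended on scaling: without it the differences were 0.25 and 0.21.

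Peg3 (chr7:6703892-6730431, minus strand) encodes a large zinc finger protein and is expressed from the paternal copy. It had the largest difference of the 6 genes tested. Scaled areas were 9540, 2289 and 8403 in Mavs-/- and 50231, 32835 and 50630 in the double mutants. Every double mutant library lay above every Mavs-/- library, as for 27.6% of all genes tested. The log2 difference was 2.81 (SE 0.506, 95% CI 1.58 to 4.04), a 7.03-fold difference on the scale of area + 500, with an adjusted p of 0.0133 by limma. By size it was number 23 of 3036, and it stood 2.47 above the median of all genes and 2.40 to 2.91 above it under the other scalings. The adjusted p was 0.0736, 0.0501 and 0.0872 without replicate 1, 2 or 3 of the double mutants, so the call needed all 3 of these libraries. It was also lost for bases covered (log2 difference 1.53, adjusted p 0.0861) and for the percentile within the library (adjusted p 0.204), while its direction was kept under all 20 alternatives.

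The greater area of Peg3 came with wider coverage. Peaks touched 1 or 2 of the 9 exons in Mavs-/- libraries and 7 to 9 in double mutant libraries. They covered 31.8% ± 15.3 and 85.0% ± 4.07 of the exonic bases (SD, n = 3). Within its library the gene ranked 157, 717 and 187 in Mavs-/- and 18, 31 and 7 in the double mutants. A stretch of 4642 bases (chr7:6721933-6726574) annotated as exon 2 of a transcript with a retained intron held peaks in 5 of 6 libraries, the exception being Mavs-/- replicate 2. Coverage and area come from the same peaks and are not separate measurements.

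**Figure D3:**
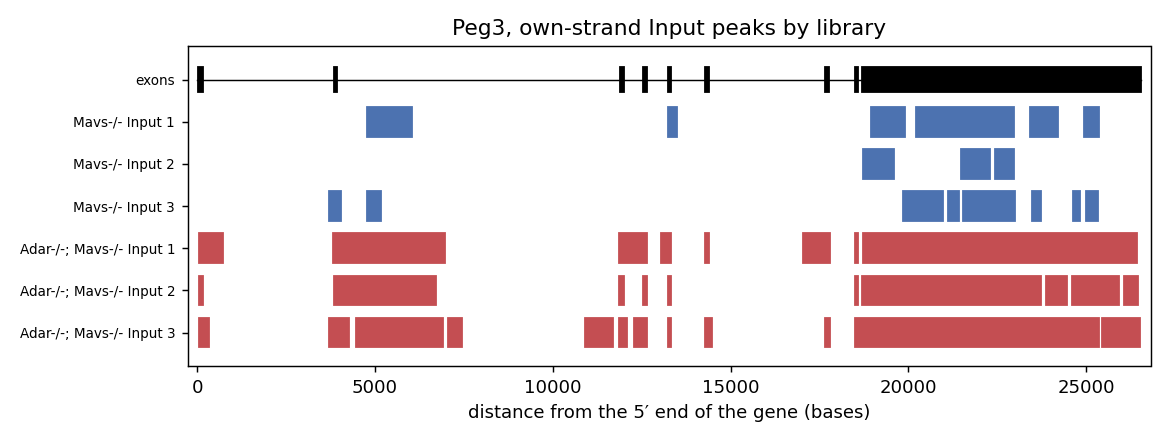
Own-strand Input peaks of Peg3 in each library (rows) by distance from the 5′ end of the gene in bases (x axis), with the 9 exons of the reference transcript in black, Mavs-/- in blue and the double mutants in red. In Mavs-/- the peaks are broken and lie mainly over the last exon, and in the double mutants the last exon is nearly filled and the upstream exons have peaks too.

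To place the Peg3 signal, windows of 30 coding bases were read from the GENCODE M21 transcript. Each lay around the summit of the coding Input peak with the largest area in its library. In replicates 1 and 2 of the double mutants these windows overlapped by 23 bases, given in capitals.
Peg3, double mutant replicate 1 (chr7:6707910-6707939, minus strand): caaacggTGATGCTGACGAGCCAGACGGAG
Peg3, double mutant replicate 2 (chr7:6707903-6707932, minus strand): TGATGCTGACGAGCCAGACGGAGccgggat
The peaks had areas of 39313 and 21434. In double mutant replicate 3 the coding peak with the largest area was of similar size (37995), but its window lay elsewhere in the gene, at chr7:6711891-6711920. The windows of the Mavs-/- libraries lay at chr7:6709069-6709098, chr7:6711512-6711541 and chr7:6708291-6708320, in peaks with areas of 3623, 656 and 2914, so no window was common to all libraries of either genotype. Windows followed area, which grows with peak length, and not height. In Mavs-/- replicate 2 the peak with the largest −log10 p by Genrich (10.0, area 624) had its summit at position 6707918. That position lies within the 23 bases in capitals. In Mavs-/- replicate 1 the largest −log10 p (11.4) lay at position 6717160, elsewhere in the gene.

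Zim1 (chr7:6671269-6696450, minus strand) lies 7.4 kb from Peg3, encodes another zinc finger protein and is expressed from the maternal copy. Input peaks were found in double mutant replicates 1 and 3, with scaled areas of 4705 and 3785. Replicate 2 and all 3 Mavs-/- libraries had none, so it was left out of the Input test. The peaks lay in exon 8, the last, and covered 45.3% and 29.6% of the exonic bases. In both libraries the peak nearest the 5′ end of the gene began at the same base, position 6678268, a few bases before exon 8. The summit windows of these peaks are coding sequence, from the GENCODE M21 transcript:
Zim1, double mutant replicate 1 (chr7:6677281-6677310, minus strand): cttgacggagcacaagcagatccatgtgcc
Zim1, double mutant replicate 3 (chr7:6677582-6677611, minus strand): aaccctttaaatgtgacgagtgcgggaaaa
These windows do not overlap.

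Meg3 and Dlk1 lie 77.7 kb apart on chromosome 12. Meg3 (chr12:109541001-109571726, plus strand), a maternally expressed non-coding RNA, had scaled areas of 3357, 758 and 1347 in Mavs-/- and 1146, 717 and 0 in the double mutants. The genotypes overlapped, and the difference of −1.05 (SE 0.601, 95% CI −2.51 to 0.41, adjusted p 0.256 by limma) did not pass. Exon 1 of its reference transcript held a peak in all 5 libraries with signal, and exon 5, the last, in Mavs-/- replicates 1 and 3. Dlk1 (chr12:109452823-109463336, plus strand), a paternally expressed membrane protein of hepatoblasts, had 1 peak in 1 library. It covered 778 bases of exon 6 in double mutant replicate 1, with an area of 877.

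Grb10 (chr11:11930508-12038683, minus strand), an adaptor protein that restrains growth signalling from insulin-type receptors, was detected in all 6 libraries. Scaled areas were 5511, 4444 and 8594 in Mavs-/- and 7132, 6163 and 3418 in the double mutants. The ranges overlapped widely (difference −0.15, SE 0.328, 95% CI −0.94 to 0.65, adjusted p 0.769 by limma), and the sign turned without scaling (0.19). Peaks on exons 4 and 17 were present in every library.

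Mest and Igf2r were near the detection limit. Mest (chr6:30723547-30748465, plus strand), a paternally expressed member of the alpha/beta hydrolase family, had 4 peaks in Mavs-/- replicate 3 only, with a scaled area of 3043. Igf2r (chr17:12682406-12769664, minus strand) had peaks on exons 24, 25 and 27 in Mavs-/- replicate 3 (1238) and on exon 48, the last, in double mutant replicate 2 (668). Per library, 6, 6 and 8 of the 10 genes had an Input peak in Mavs-/- and 8, 7 and 6 in the double mutants, so the number detected did not separate the genotypes.

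RNase-only and MDA5-protected peaks mark RNA that resisted the nucleases, as paired strands do, without or with the MDA5 fragment. In 8 of the 10 genes (Afp, H19, Igf2, Dlk1, Meg3, Peg3, Mest and Igf2r) no such peak lay inside the gene on either strand in any of the 12 digested libraries. Of all 1319 genes with an Input peak in all 6 libraries, 37.4% had an own-strand RNase-only peak in at least 1 library and 14.8% an MDA5-protected one. Afp, H19, Igf2, Peg3 and Grb10 belong to that group, and only Grb10 had any own-strand digested peak. Digested peaks were called against Input, and these shares were not matched for Input area. The part of large Input areas in the missing peaks was not tested. Peg3, with its large Input areas in the double mutants, was 13.4 kb from the nearest RNase-only peak and 462.6 kb from the nearest MDA5-protected one.

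Zim1 was the exception among RNase-only libraries. An intronic peak was found on the gene's own strand in 3 of 3 double mutant libraries, with areas of 976, 645 and 949, and in 0 of 3 Mavs-/- libraries. At the same place the opposite strand had peaks of 1168, 758 and 945 in the same 3 libraries and none in Mavs-/-. The own-strand peaks were 132, 141 and 142 bases long, with their outer limits at chr7:6690351-6690493, and lay 786 to 797 bases from the nearest exon of the reference transcript. MDA5-protected libraries had no peak in Zim1. In limma the own-strand difference was 1.32 (SE 0.344, adjusted p 0.129), where Zim1 had passed the filter through the high group alone. That fit called 0 of 2024 genes (0% in either direction, and 174 or 8.6% at an unadjusted p of 0.05). Of 12 alternatives 11 did not pass either (adjusted p up to 0.692), and the exception was bases covered (0.022), which called 100 of 2024 genes. An own-strand RNase-only peak in all 3 double mutant and no Mavs-/- library was seen in 1.99% of 5216 genes with any such peak, and the reverse in 0.307%. RNase-only lists were longer in the double mutants (5605 to 6094 peaks) than in Mavs-/- (3150 to 5572), and the part of list length in the Zim1 pattern was not tested.

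**Figure D4:**
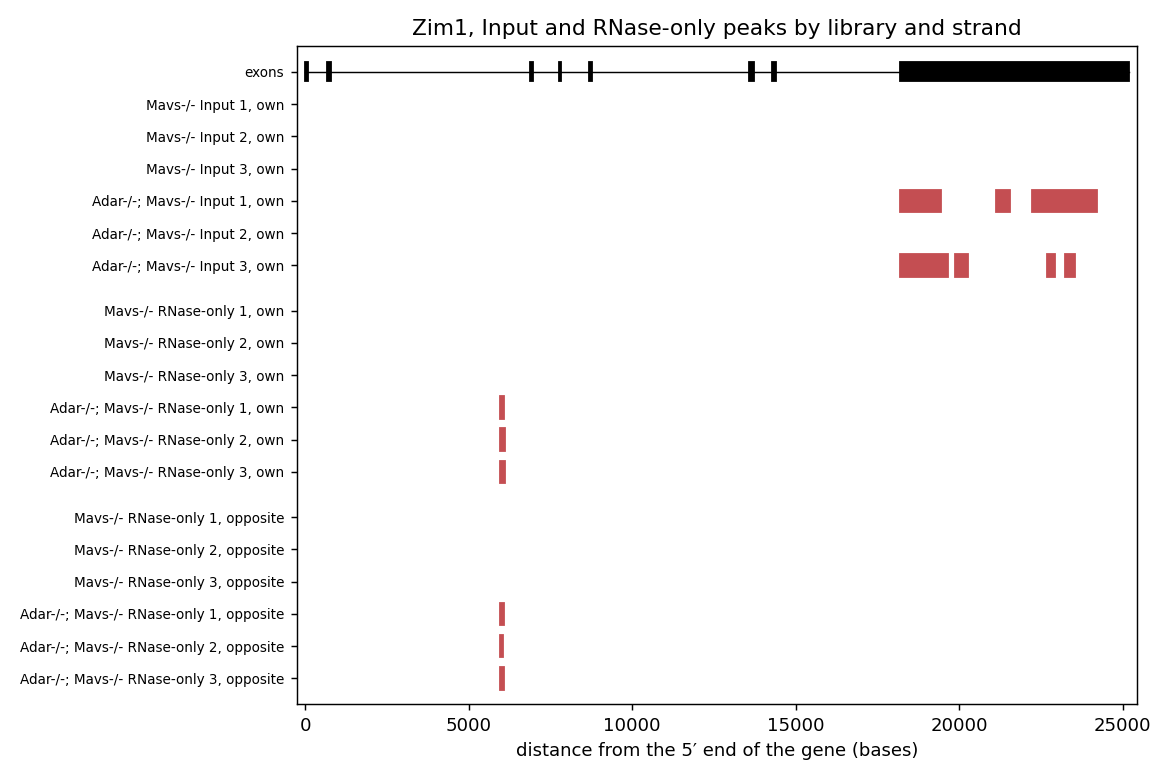
Input and RNase-only peaks of Zim1 by library and strand (rows) against distance from the 5′ end of the gene in bases (x axis), with exons in black, and peaks drawn in red for the double mutants; Mavs-/- rows are empty. The Input peaks fill parts of the last exon in replicates 1 and 3, and the RNase-only peaks lie about 5958 bases into the gene, on both strands, in all 3 double mutant replicates.

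Peaks on both strands were not rare: 4.63% to 22.2% of RNase-only peaks per library had a partner on the opposite strand. Grb10 had weaker and scattered signal near its 5′ end. Mavs-/- replicate 3 had an MDA5-protected own-strand peak (chr11:12036943-12037028, area 576), and Mavs-/- replicates 1 and 3 had opposite-strand RNase-only peaks (areas 568 and 587) between positions 12037432 and 12037644. No double mutant library had a digested peak inside Grb10. In the MDA5-protected fit 723 genes were tested and 17.3% were called, 14.5% higher and 2.77% lower in the double mutants, and none of the 10 genes had peaks in enough libraries to enter it.

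Just beyond some gene ends there was RNase-resistant RNA. At 673 to 681 bases downstream of Afp, inside the antisense gene Gm43449, both strands had RNase-only peaks in replicates 1 and 3 of each genotype. Own-strand areas there were 974 and 1588 in Mavs-/- and 2168 and 696 in the double mutants, so the genotypes overlapped. Outside Grb10, 432 and 434 bases downstream, own-strand RNase-only peaks were found in double mutant replicates 1 and 2 (809 and 612).

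Related gene lists gave the 10 genes a setting. The oncofetal and mature hepatocyte lists both held calls in each direction. Among 24 further imprinted genes 5 were tested, with 0 higher and 2 lower in the double mutants. Rian, a maternal non-coding RNA of the Dlk1 and Meg3 cluster, had areas of 837, 1359 and 510 in Mavs-/- and no peak in the double mutants (adjusted p 0.0159 by limma), and it too entered the test through the Mavs-/- libraries alone. Cdkn1c, a maternally expressed inhibitor of the cell cycle, fell by 1.66 on the log2 scale (adjusted p 0.0254 by limma). Its areas were 1527, 1753 and 1306 in Mavs-/- and 0, 543 and 0 in the double mutants. It thus passed the filter mainly through the Mavs-/- libraries. Over the alternatives its log2 difference ranged from −3.12 to −0.70. Rian lost its call without double mutant replicate 1, 2 or 3 (0.119, 0.118 and 0.140), and Cdkn1c without double mutant replicate 1 or 3 (0.111 and 0.123) or Mavs-/- replicate 1 or 2 (0.0673 and 0.0683). Imprinted genes without an Input peak in any library numbered 17 of these 24.

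Of 12 oncofetal genes 5 were tested, and they split. Gpc3, a cell surface proteoglycan of fetal liver, was higher in the double mutants, with areas of 11310, 10047 and 9148 against 2836, 3070 and 4631 (log2 difference 1.43, adjusted p 0.00903 by limma). Aldoa, the glycolytic aldolase of fetal liver and muscle, was higher by 2.06 (adjusted p 0.0434), and the other annotated gene of that symbol had an Input peak in 0 libraries. Areas of Aldoa were 0, 1839 and 652 in Mavs-/- and 4515, 3601 and 4230 in the double mutants. Cyp3a16, a cytochrome P450 of young mouse liver, fell by 2.79 (adjusted p 0.0104), from 6107, 7290 and 4327 to 983, 0 and 521. Cd24a, a surface protein of progenitor cells, fell by 1.90 (adjusted p 0.0367), from 2331, 2886 and 4458 to 1057, 675 and 0. Their log2 differences ranged from −3.85 to −1.66 and from −2.84 to −1.02 over the alternatives. No Input peak was found in any library for Igf2bp1, Igf2bp2, Igf2bp3, Lin28b, Hmga2 or Trim71. The call of Cd24a was lost whichever library was left out (adjusted p 0.0713 to 0.0954), and that of Aldoa without any library but Mavs-/- replicate 2 (0.0542 to 0.134). Cyp3a16 lost its call without double mutant replicate 3 (0.0538) or Mavs-/- replicate 2 (0.0515), and Gpc3 without double mutant replicate 1 (0.0509). Of 10 regulators 3 were tested and 0 passed. Zhx2, a postnatal repressor of Afp and H19, had no Input peak, and Hnf4a, the central hepatocyte factor, had the smallest adjusted p of the list (0.133, log2 difference 0.81).

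Mature hepatocyte genes split as well, with 4 higher and 3 lower of 19 tested and a median of 0.37, beside 0.35 over all genes. Ass1, an enzyme of the urea cycle, was higher by 2.11 (adjusted p 0.00823 by limma), with areas of 5477, 6563 and 7824 against 697, 1593 and 1238. The other higher calls, named after their values were seen, were Tat, Arg1 and Gls2. Otc, another enzyme of the urea cycle, had a log2 difference of −0.64 (adjusted p 0.31) and did not pass. Igf1, the growth factor that takes over from Igf2 after birth, had areas of 8694, 5373 and 4005 in Mavs-/- and no peak in the double mutants (adjusted p 0.00639), so it entered the test through the Mavs-/- libraries alone. Cyp3a11, a drug-metabolizing cytochrome, fell by 2.28 (adjusted p 0.00893), and Cyp8b1, a bile acid enzyme, fell by 2.62 (adjusted p 0.0252). Areas of Cyp8b1 were 7358, 9376 and 5559 in Mavs-/- and 1621, 1421 and 0 in the double mutants. Of the identity genes, Ttr fell by 0.92 (adjusted p 0.0163) and the other 7 of 8 did not pass. Without double mutant replicate 1 or 2 or Mavs-/- replicate 1 or 2 the adjusted p of Cyp8b1 was 0.0667, 0.066, 0.0751 and 0.0782. For Ttr it was 0.0503 to 0.103 without any library but Mavs-/- replicate 3.

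**Figure D5:**
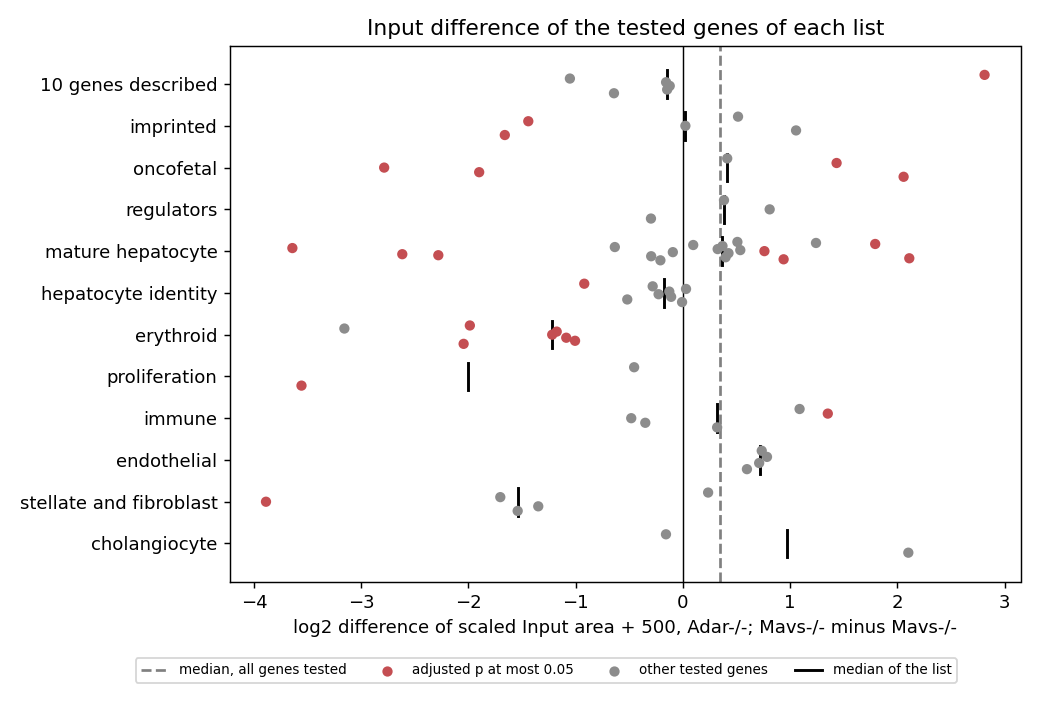
Log2 difference of the scaled Input area + 500 (x axis, double mutant minus Mavs-/-) for each tested gene of each list (rows), with called genes in red, other tested genes in grey and list medians as black bars. The 10 genes, the oncofetal and the mature hepatocyte lists have points on both sides of 0, and 6 of 7 tested erythroid genes are red and below 0.

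Markers of cell types other than hepatocytes differed too, and in bulk liver fewer cells of a type and less RNA per cell cannot be told apart. Of 7 tested erythroid genes 6 were called lower and 0 higher (median −1.22). The other, Slc4a1, was lower as well (log2 difference −3.16) but did not pass (adjusted p 0.0515 by limma). The summed scaled area of the list was 45365 to 69299 in Mavs-/- and 12816 to 25137 in the double mutants. Hbb-bt fell by 1.18, Hbb-bs fell by 1.22 and Hba-a2 fell by 1.09 (adjusted p 0.0105, 0.0107 and 0.0125). Tfrc, the transferrin receptor, had areas of 1486, 784 and 2551 in Mavs-/- and no peak in the double mutants (adjusted p 0.0134). Tfrc and Alas2, both among the 6, entered the test through the Mavs-/- libraries alone. Hbb-bt lost its call without double mutant replicate 2 (0.0512), Hbb-bs without double mutant replicate 2 or Mavs-/- replicate 2 (0.057 and 0.0515), Hba-a2 without these (0.0691 and 0.0515) or double mutant replicate 3 (0.0578), and Tfrc without any double mutant library (0.0843 to 0.105). The paired globin genes are near-identical in sequence, so their areas are uncertain individually. Gata1 had no Input peak in either genotype. Mki67, a marker of dividing cells, had areas of 6100, 8194 and 15138 in Mavs-/- and 660, 449 and 0 in the double mutants (adjusted p 0.00823), 1 of 2 tested proliferation genes to pass. Col3a1, a collagen of fibroblasts and stellate cells, had areas of 9599, 9780 and 6655 against 0, 416 and 0 (adjusted p 0.00639). It was 1 of 5 tested genes of its list to pass. The summed area of that list was 28316 to 33601 in Mavs-/- and 3442 to 10538 in the double mutants. In Mavs-/- the largest part of it was Reln (14920, 15826 and 19820), which did not pass (log2 difference −1.70, adjusted p 0.0645 by limma). Without passing, Col1a1 (−1.54) and Col1a2 (−1.35) were lower and Vim (0.235) higher. Marco, a macrophage receptor, was higher by 1.35 (adjusted p 0.0411), 1 of 5 tested immune genes to pass, and its call was lost whichever library was left out (0.0509 to 0.157). The rest of that list went both ways without passing: Lyz2 (−0.48) and Clec4f (−0.35) were lower, and Cd5l (0.32) and Mpo (1.09) higher. No gene passed among 4 endothelial and 2 cholangiocyte genes tested, of which Kdr (0.78) and Cdh1 (2.10) had the smallest adjusted p, 0.245 and 0.064. The part of these cell types in the values of Peg3, Zim1 and the other imprinted genes was not tested.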

How the data were processed

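Livers of 2 genotypes gave 18 libraries (3 fractions, 3 replicates each), grouped by the genotype and incubation labels. The authors trimmed 75 bp reads (Trim Galore 0.6.6 in the submitters' processing notes), aligned them to GRCm38 (mm10) with NextGenMap and used Genrich 0.6.1 for each library and strand. Peaks had to reach an adjusted p of 0.01 and an area of 500, sites up to 20 bp apart were joined, and digested libraries were set against Input. The deposited score of a peak is its area under the significance curve, which grows with depth and list size. Significance was deposited on the −log10 scale, as p-value and adjusted p-value. No counts are in the lists, so depth and counting intervals are unknown. NextGenMap does not split reads over introns, so reads over exon junctions can be lost.

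Own-strand peaks touching an exon (Input) or the gene span (digested) by at least 1 base were summed per gene (bedtools 2.31.1, Python 3.11.15, pandas 2.3.3), divided by a median-ratio size factor and tested as log2(area + 500) with limma 3.58.1 (R 4.3.3, eBayes with trend, Benjamini-Hochberg over all genes tested, threshold 0.05), for genes with a peak in at least 3 of 6 libraries. The fit was also run on simulated data with independent noise. These held no difference in list size between genotypes, so they do not test its part in the calls. With 3 replicates a group the p-values measure the spread between these mice only, and an exact permutation test could not have passed. Replicate numbers did not pair the samples (correlations of deviations between −0.12 and 0.05).

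The 10 genes and the lists were chosen with earlier results of these data known. Named from each other list were up to 4 called genes with the smallest adjusted p in the Input fit, or the first gene where none was called, with Adar, Mavs, the 3 genes most like Igf2, and microRNAs inside the 10 genes. Alternatives were other scalings, measures, pseudocounts, filters, overlaps, strand and span rules, equal numbers of peaks, a replicate block, and each library left out.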

Additional observations from a re-analysis of the deposited data

Results flagged for a closer look

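Signal outside the main measurement gave 5 results in which Adar-/-; Mavs-/- (double mutant) libraries had peaks and Mavs-/- libraries had 0. Only signal above the Mavs-/- level is listed. The reverse was seen inside Grb10, where 2 Mavs-/- libraries had an opposite-strand RNase-only peak (568 and 587), 1 had an own-strand MDA5-protected peak (576), and the double mutants had 0. On the strand opposite to Zim1, 3 libraries had an RNase-only peak (areas 1168, 758 and 945), at the place of the own-strand intronic peaks. Within 1000 bases downstream of Grb10, 2 libraries had an own-strand RNase-only peak (809 and 612) and 1 an MDA5-protected peak (533). Downstream of Afp, 1 library (replicate 1) had an own-strand MDA5-protected peak (781), where RNase-only peaks were found in both genotypes. And 35 bases beyond Mest, on the opposite strand and inside Copg2, 1 library (replicate 1) had an RNase-only peak (665). No test was made of these peaks, and the RNase-only lists were longer in the double mutants.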

How the results depend on the processing

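The number of genes called was unstable. The Input fit called 647 genes, and 368 on within-library percentiles, 387 on bases covered, 346 with no filter, 247 with a peak in all 6 libraries, 355 with an area of at least 1000, 425 with equal numbers of peaks and 46 to 869 with 1 library left out. The RNase-only fit called 0, and 2 with the share of the summed area, 100 on bases covered, 3 with no filter, 2 with equal numbers of peaks and 0 to 2 with 1 library left out. The MDA5-protected fit called 125, and 65 on percentiles, 15 with no filter, 3 with a peak in all 6 libraries, 32 with an area of at least 1000, 65 with equal numbers of peaks, 29 in exons only and 0 to 152 with 1 library left out. With the replicate number as a block, Input called 560, RNase-only 0 and MDA5-protected 1. The numbers do not pair the samples. The cause of these shifts was not tested, apart from the fewer genes or libraries that some of the settings leave.

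The sign turned for H19 without scaling (0.25), on percentiles (0.40 percentage points) and on bases covered (0.004), for Igf2 likewise (0.21, 0.38 and 0.006), and for Grb10 likewise (0.19, 1.98 and 0.083). Grb10 ranged from −0.41 to 0.16 with 1 library left out. None of these passed. Peg3 kept its direction in 20 of 20 alternatives and its call in 15, with log2 differences of 1.53 to 3.97 and adjusted p of 0.00949 to 0.204. Over 28 single-gene results, 412 of 521 alternative values kept direction and call, 90 lost the call, 8 gained one and 11 turned sign. Depth is unknown, so a gene without a peak cannot be called absent.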
